A study of Mus musculus with 9 samples.

Results

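Adrenergic receptors are the proteins through which neurons sense noradrenaline. The 6 receptor genes described here are Adra1a, Adra1b, Adra1d, Adra2a, Adra2c and Adrb1, which were taken by name out of 21457 features measured in nuclei of cholinergic neurons of the adult mouse spinal cord. Descending fibres from the brainstem bring noradrenaline to the spinal cord, where it reaches both skeletal motor neurons (MNs), which drive muscle, and visceral MNs, the preganglionic neurons of the autonomic nervous system. Receptors of the alpha1 type (Adra1a, Adra1b, Adra1d) couple to Gq, which acts through phospholipase C, inositol trisphosphate and protein kinase C and usually excites a neuron. Receptors of the alpha2 type (Adra2a, Adra2c) couple to Gi, which lowers cyclic AMP and opens inwardly rectifying potassium channels, and beta receptors (Adrb1) couple to Gs, which raises cyclic AMP.

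The nuclei came from 12 mice aged 8 weeks that carried 1 copy each of Chat-IRES-Cre and of Sun1-sfGFP, so that every nucleus that had ever expressed Chat-driven Cre was tagged with GFP at its envelope, and were sorted as GFP+ and DRAQ5+. All groups share this genotype. The mice were pooled by 4, replicate 1 from males and females, replicate 2 from males and replicate 3 from females. Cervical, thoracic and lumbar/sacral cord of every pool were kept apart, which gave 9 single-nucleus libraries. The authors labelled 16042 cholinergic nuclei as 5054 skeletal MNs (clusters S1 to S3), 5613 visceral MNs (V1 to V10) and 5375 interneurons (I1 to I8).

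Values are corrected counts, made by the authors with a regression model, with a median of 4712 to 16127 per nucleus in the 9 libraries. Levels are sums over the nuclei of a group in a library, scaled by all corrected counts of those nuclei to the usual common total (CPM), and shares are the percent of nuclei with at least 1 corrected count. The 3 lumbar/sacral libraries were among the shallowest, with medians of 4712, 7175 and 5701, so shares are also given after every nucleus was thinned to 4600 corrected counts. Class markers, summed over each class, followed the labels: Tns1 stood at 252 to 454 CPM in skeletal MNs and at most 37.5 CPM in visceral MNs, Zeb2 at 190 to 579 CPM in visceral MNs and at most 54.6 CPM elsewhere, and Pax2 at 160 to 260 CPM in interneurons and at most 18.1 CPM elsewhere. The paper reports no detectable Zeb2 in cluster V8, which it presumed to be visceral from its place among the clusters and its Fbn2. Hox genes, which mark position along the cord, went against the labels in the cervical and thoracic libraries of the male pool. In visceral MNs Hoxc5 was at 42.2, 78.3 and 49.5 CPM in cervical replicates 1 to 3 and at 93.8, 32.7 and 97.2 CPM in thoracic replicates 1 to 3. Hoxd11 was at 41.0, 45.3 and 33.8 CPM in the lumbar/sacral libraries and at 0 in the other 6, so cervical and thoracic libraries were held against lumbar/sacral ones as a single group. Across libraries, 33 barcodes were found more than once (66 nuclei), and 173 nuclei (1.08%) were called doublets.

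The receptor genes differed in where they were found. Adra1a and Adra1b were found in many nuclei of all 3 classes, Adra2a and Adrb1 were found mainly in visceral MNs, Adra1d was found almost only in skeletal MNs, and Adra2c was sparse in every class. At least 1 of the 6 receptors had a value in 55.0% of skeletal MNs, in 37.5% of cervical and thoracic visceral MNs, in 52.6% of lumbar/sacral visceral MNs and in 37.5% of interneurons. In single libraries these shares ran from 44.6 to 69.2% in skeletal MNs and from 26.3 to 60.2% in interneurons. For visceral MNs they ran from 32.4 to 51.7% in cervical and thoracic and from 48.0 to 56.2% in lumbar/sacral libraries. The ranges of the 3 classes overlapped, and these shares were not thinned. The level of 1 gene should not be set against that of another here, since the genes span from 3.4 kb (Adra2c) to 136 kb (Adra1a) and the method reads 3′ ends and unspliced RNA.

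**Figure D1:**
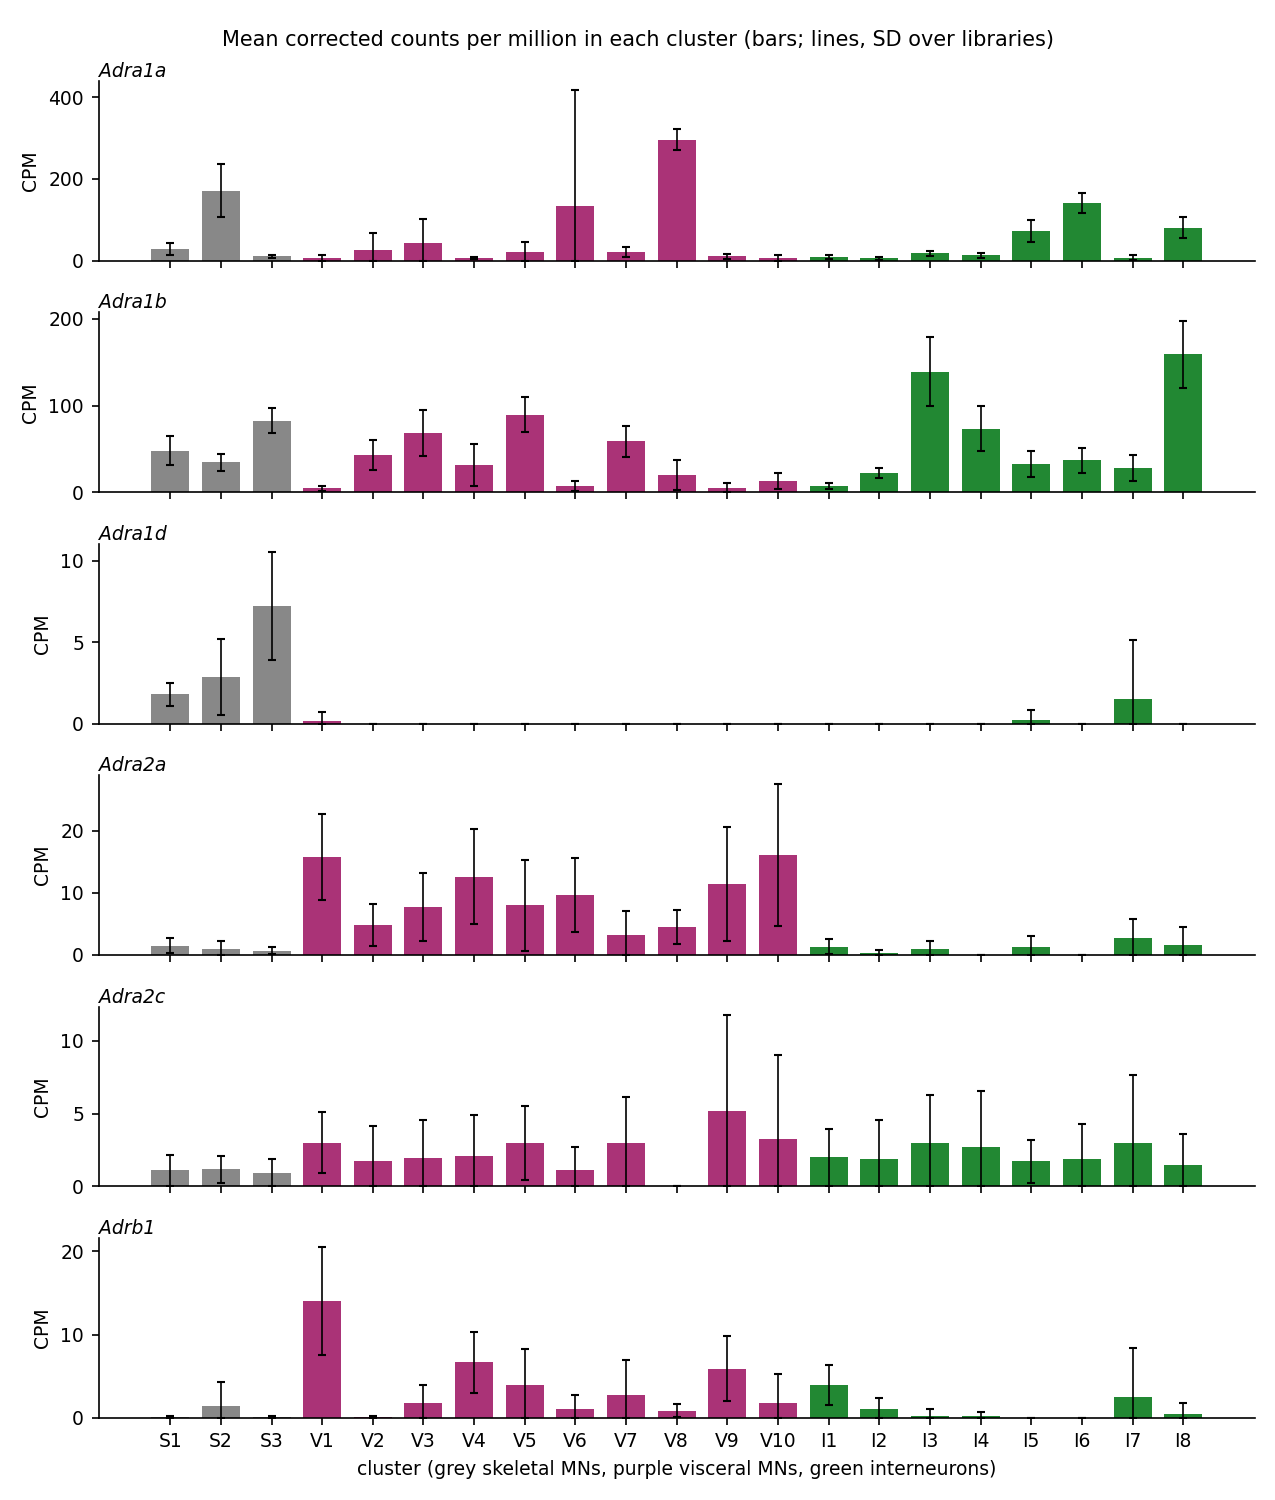
Mean level (CPM, each panel with its own axis from 0) of the 6 receptor genes in the 21 clusters, taken over libraries that held 10 or more nuclei of a cluster; lines are the SD over these libraries, drawn no lower than 0. Adra1a is highest in V8, S2 and I6, Adra1b in I8 and I3, Adra1d in S3, Adra2a in V10 and V1, and Adrb1 in V1, while Adra2c shows no cluster above the spread of the others.

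Adra1a encodes the alpha1A receptor and lies on the plus strand of chromosome 14 (GRCm38, chr14:66635251-66771168). In visceral MNs it was far higher in lumbar/sacral cord than elsewhere. Its level in visceral MNs was 5.83, 4.70 and 5.62 CPM in cervical replicates 1 to 3 and 5.43, 6.10 and 6.03 CPM in thoracic replicates 1 to 3, against 165, 118 and 130 CPM in lumbar/sacral replicates 1 to 3. The lowest lumbar/sacral library was far above the highest of the other 6. The share of visceral MNs with Adra1a was 35.3% ± 2.9 (SD, n = 3) in lumbar/sacral and 4.67% ± 1.1 (SD, n = 6) in cervical and thoracic libraries. After thinning, these shares were 33.1% and 2.08%. The exact permutation test of the unthinned shares gave a two-sided p of 0.0119, the smallest that 84 groupings allow (0.177 adjusted over all genes). An exact p under 0.05 was reached by 21.9% of genes. The test treats libraries of the same pool as separate, and with the pool as a block no p could be under 0.25.

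In the fit across all genes, Adra1a was higher in lumbar/sacral visceral MNs by 3.74 on the log2(CPM + 5) scale (SE 0.13, limma adjusted p = 3.88e-06), where 4.27% of the 10031 genes tested passed. Adra1a passed the filter on low values only through the 3 libraries in which it was high, so it could hardly have been tested without differing, and its call there is no support. With no filter on low values, where every gene was tested, the adjusted p was 1.01e-05. Within the pools the log2 difference was 4.00, 3.57 and 3.64. The difference was as large (3.72, adjusted p = 0.000199) without the cervical and thoracic libraries of the male pool (left out after seeing the data), and it ran from 3.60 to 3.84 when single libraries were left out. Of the markers of other cells, the 6 astrocyte genes together moved with region, at 33.3 to 49.7 CPM in lumbar/sacral and 18.6 to 29.4 CPM in the other visceral MNs. The excess lay in Slc1a2 (29.9 to 47.1 against 12.1 to 23.8 CPM), while Aqp4 and Gfap were at or under 0.33 and 1.21 CPM in all 9 libraries. The oligodendrocyte gene Mbp lay the other way, at 14.2 to 24.5 CPM in lumbar/sacral and 26.8 to 38.1 CPM in the other libraries, while the whole oligodendrocyte list overlapped (36.5 to 56.1 against 48.2 to 61.6 CPM). The part of these markers in the difference was not tested.

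**Figure D2:**
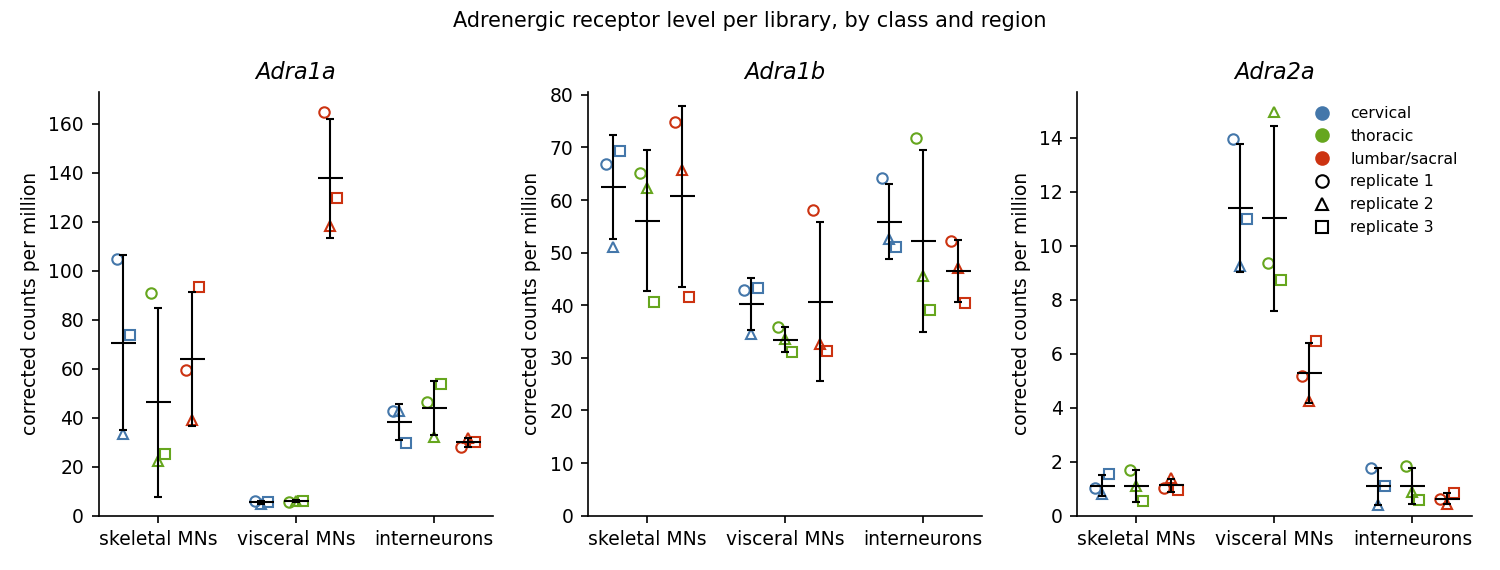
Level (CPM, axis from 0) of Adra1a, Adra1b and Adra2a in each library, by class of neuron and region; symbols are libraries, bars and lines the mean and SD of 3 libraries. Adra1a in visceral MNs is at 118 to 165 CPM in the lumbar/sacral libraries and at 4.70 to 6.10 CPM in the others.

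V8, a cluster found almost only in lumbar/sacral tissue, held most of this Adra1a. V8 had 463 lumbar/sacral nuclei and 4 elsewhere, and it was picked out with its Adra1a level already known, so its values are a description. Adra1a was found in 72.0, 75.0 and 69.7% of V8 nuclei of lumbar/sacral replicates 1 to 3, at 309, 311 and 266 CPM. The replicates were close to each other, and over the 463 nuclei the share was 72.1% (95% Wilson interval 67.9 to 76.0%, counting error only) and 67.0% after thinning. Nuclei with a value held a median of 2 corrected counts and at most 14. V8 nuclei were 30.9% of the lumbar/sacral visceral MNs and carried 64.5% of their Adra1a counts, with 62.4 to 66.4% in single libraries. Sst and Penk, which encode the peptides somatostatin and proenkephalin, were found in 71.1 to 82.0% and 72.9 to 93.1% of V8 nuclei. The paper clustered the visceral MNs again and reports Adra1a together with Penk and Sst in a cluster seen only in lumbar/sacral cord. Whether that cluster holds the same nuclei as V8 was not tested. Adra1a was found in 73.2% of V8 nuclei with Sst and in 68.8% of those without it, so within V8 its RNA was spread over nuclei with and without a value for Sst.

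The other receptors were low in V8. Adra1b was found in 15.6, 4.31 and 4.92% of V8 nuclei of the 3 libraries, and replicate 1 stood above the other two. Adra2a was found in 11 and Adrb1 in 2 of the 463 nuclei. Adra1d and Adra2c were found in 0 of 463 nuclei, which allows a share of up to 0.648% with a value. V8 was therefore a cluster in which Adra1a was the 1 receptor gene found in most nuclei.

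The regional difference of Adra1a was not limited to V8. Without V8 and V9, the cluster found almost only in cervical and thoracic tissue, Adra1a was still higher in lumbar/sacral visceral MNs by 2.84 (SE 0.17, limma adjusted p = 0.000223), where 1.57% of genes passed, with 3.25, 2.55 and 2.73 in the 3 pools. Here too it passed the filter through lumbar/sacral libraries alone, and with no filter the adjusted p was 0.000321. In V2 the lumbar/sacral libraries ran from 52.0 to 107 CPM and the other 6 from 0 to 5.02 CPM. In V3 they ran from 102 to 150 CPM against 2.79 to 9.25 CPM, and in V5 from 25.9 to 70.3 CPM against 1.95 to 12.7 CPM in 4 libraries. The groups did not overlap in these 3 clusters, as for 3.74, 2.57 and 6.93% of genes in the same direction.

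Clusters V1, V4 and V7 did not show such a gap. Adra1a in V7 was at 29.1 to 43.7 against 9.51 to 34.2 CPM, and in V1 at 5.66 to 22.7 against 0.75 to 7.84 CPM, and both overlapped. V4 had no more Adra1a in lumbar/sacral tissue (3.15 to 9.15 CPM) than elsewhere (3.28 to 10.5 CPM). As a measure of background, Sst, which is high in V8, was found in 6.67 to 16.3% of lumbar/sacral nuclei of V1 to V7 and in 1.85 to 4.97% of their cervical and thoracic nuclei. Adra1a was found in 3.75% of lumbar/sacral V4 nuclei (median 5458 corrected counts) and in 26.9% of V2 (5034), 27.1% of V3 (4972), 16.0% of V5 (5084) and 17.1% of V7 nuclei (5441) of the same libraries. Sst was found in 26 of 160 V4 and 27 of 225 V3 nuclei of lumbar/sacral tissue. The part of free RNA in these shares was not tested.

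A small group of nuclei labelled V6 had a higher pooled level than V8. V6 had only 30 nuclei in lumbar/sacral libraries, and whether these belong with the other V6 nuclei was not tested. Of these, 21 had Adra1a (13 of 13, 3 of 10 and 5 of 7 in replicates 1 to 3). Their pooled level was 523 CPM, against 3.68 CPM in the 552 V6 nuclei of the other regions, in which 13 had a value. Replicate 1 stood at 810 CPM and replicate 2 at 235 CPM, with 573 CPM from the 7 nuclei of replicate 3. Sst and Penk RNA were each found in 2 of the 30, against 76.5 and 78.6% of lumbar/sacral V8 nuclei. With V6 left out along with V8 and V9, the regional difference of Adra1a was 2.51 (limma adjusted p = 0.000248).

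**Figure D3:**
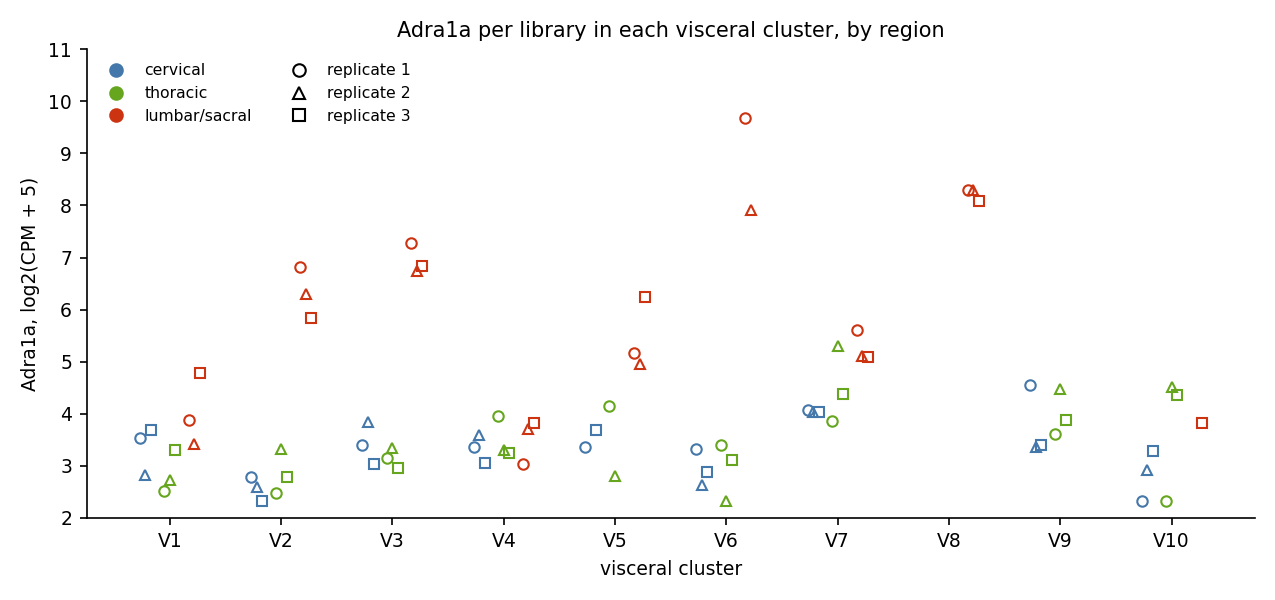
Adra1a, as log2(CPM + 5), per library in each visceral cluster, for libraries with at least 10 nuclei of the cluster; colour marks the region and the symbol the replicate. Lumbar/sacral libraries stand above all others in V2, V3, V5 and V6, and mix with them in V1, V4, V7 and V10, while V8 has lumbar/sacral libraries alone and V9 none.

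The same regional contrast was then drawn in skeletal MNs and interneurons. In skeletal MNs Adra1a differed by 0.26 (SE 0.47, limma adjusted p = 0.913), where 0.0100% of genes passed and the median of all genes was 0.12. In S2 alone it differed by 0.28 (SE 0.39, adjusted p = 0.975), where 0% of genes passed limma's test (245 at an unadjusted p under 0.05). In interneurons it differed by -0.38 (SE 0.17, adjusted p = 1.0), where 0.0510% of genes passed. None of these passed the test, and the difference between the regional effects of visceral and skeletal MNs was 3.48 (SE 0.44, adjusted p = 0.00029, 7.13% of genes). Within S1, however, the lumbar/sacral libraries (43.4 to 52.2 CPM) did not overlap the others (14.2 to 22.2 CPM), as for 2.19% of genes. In S3 they did not overlap either (13.7 to 19.2 against 3.51 to 10.7 CPM, 3.69% of genes), whereas in S2 they did. S2 made up 9.63 to 42.8% of the skeletal MNs of single libraries, and the part of this share in the skeletal difference was not tested.

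**Figure D4:**
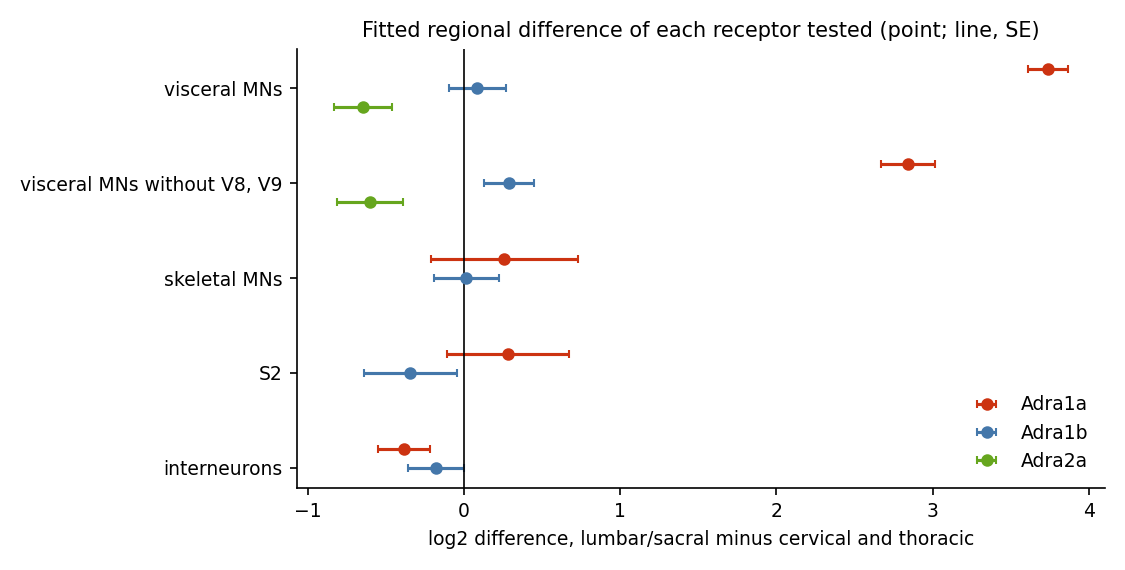
Fitted difference, lumbar/sacral minus cervical and thoracic, on the log2(CPM + 5) scale, with its SE, of the receptor genes that passed the filter on low values in each group of nuclei. Adra1a is at 3.74 and 2.84 in visceral MNs with and without V8 and V9 and at 0.26, 0.28 and -0.38 in skeletal MNs, S2 and interneurons.

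Among skeletal MNs, the level of Adra1a was highest in S2, the cluster that carries the markers of alpha MNs, which innervate the force-producing muscle fibres. Adra1a in S2 was at 233, 60.8 and 224 CPM in cervical, 241, 115 and 114 CPM in thoracic and 170, 153 and 228 CPM in lumbar/sacral replicates 1 to 3. In S1 it ran from 14.2 to 52.2 CPM, and in S3, which carries the markers of gamma MNs, from 3.51 to 19.2 CPM. S2 was above S1 and S3 in 9 of 9 libraries, and the lowest S2 library stood above the highest library of both. The log2 difference was 2.41 from S1 (SE 0.20, limma adjusted p = 9.66e-10, 25.4% of genes passed) and 3.47 from S3 (SE 0.20, adjusted p = 4.01e-13, 31.1% of genes passed). Clusters were drawn from the same nuclei, so tests between clusters or classes say how stable a difference was over libraries and are not independent of the labels.

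Adra1b, which encodes the alpha1B receptor and lies on the minus strand of chromosome 11 (chr11:43774606-43901210), was ordered the other way. Its level was 56.2 to 101 CPM in S3, 24.1 to 70.0 CPM in S1 and 19.9 to 50.5 CPM in S2. S3 was above S2 and above S1 in 9 of 9 libraries, and the difference of S2 from S3 was -1.18 (SE 0.12, limma adjusted p = 1.86e-08). S2 was lower than S1 by a smaller amount (-0.40, adjusted p = 0.0171), in 6 of 9 libraries. That call was lost without the library term (adjusted p = 0.139) and without cervical replicate 3 or any 1 of the 3 lumbar/sacral libraries (adjusted p = 0.0564 to 0.0762).

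**Figure D5:**
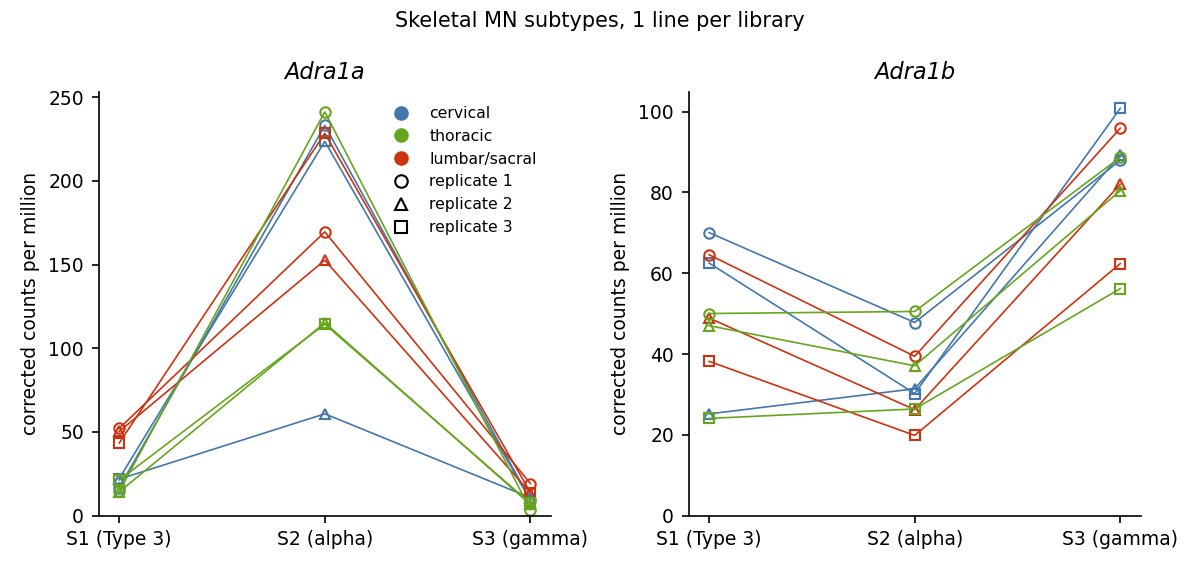
Level (CPM, axis from 0) of Adra1a and Adra1b in the skeletal clusters S1, S2 and S3, with 1 line for each of the 9 libraries. Adra1a peaks in S2 in every library, and Adra1b is highest in S3 in every library.

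Adra1d, which encodes the alpha1D receptor (minus strand, chr2:131545850-131562283), was at a low level and did not pass the filter on low values in any comparison. It was found in 5.04% of S3, 2.57% of S2 and 1.37% of S1 nuclei. Its level was higher in S3 than in S1 in 9 of 9 libraries and than in S2 in 8 of 9. It was found in 1 of 5613 visceral MNs and in 3 of 5375 interneurons. A gene on the other strand, Gm14285, overlaps it, and whether counting used the strand is not given in the sources used here.

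Across all 21 clusters, Adra1a was led by V8 (296 ± 25.4 CPM, SD, n = 3 libraries), S2 (171 ± 64.8, n = 9), I6 (142 ± 24.1, n = 9), V6 (133 ± 285, n = 8), I8 (80.2 ± 25.6, n = 8) and I5 (71.8 ± 27.1, n = 9). The mean of V6 rests on lumbar/sacral replicate 1 and was 36.1 ± 87.6 CPM (n = 7) without it, below I8 and I5, and its pooled level was 20.1 CPM. Of the neighbours in this order, only V8 and S2 differed beyond the spread of their difference over libraries (112 ± 64.9 CPM, 3 of 3 libraries). Adra1b was led by I8 (159 ± 38.6 CPM), I3 (139 ± 39.9), V5 (89.6, from 61.6 to 122), S3 (82.6 ± 14.7), I4 (73.2 ± 25.8) and V3 (68.5 ± 26.4), and no neighbours in its order differed beyond the spread. I8 was high in both, and 32.5% of its 329 nuclei had both Adra1a and Adra1b, where the product of the shares is 29.8%. In S2 16.1% of nuclei had both, with a product of 15.7%. In S2 the pair was thus found together about as often as the shares alone give. In I8 Adra1a was found in 45.7% of nuclei with Adra1b and in 32.6% of those without it, a gap that was not tested.

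Adra1b showed regional gaps of its own in a few clusters, although its class-wide regional differences were small (0.09 in visceral MNs, limma adjusted p = 0.948, and 0.02 in skeletal MNs, adjusted p = 0.987). In V4 its level was 39.9 to 81.9 CPM in lumbar/sacral and 6.58 to 26.2 CPM in other libraries, a gap shared by 5.05% of genes. It was lower in lumbar/sacral libraries in I5 (9.18 to 26.1 against 27.4 to 62.6 CPM, 0.941% of genes), in I6 (15.1 to 35.0 against 35.4 to 57.2 CPM, 1.69%) and in I7 (8.15 to 27.6 against 29.4 to 44.6 CPM, 4.50%). V4 and the 3 interneuron clusters therefore went opposite ways, and the I6 and I5 ranges all but touched. These gaps are read without a test.

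Adra2a encodes the alpha2A receptor, which in many neurons is an autoreceptor or an inhibitory receptor for noradrenaline, and lies on the plus strand of chromosome 19 (chr19:54044151-54048982). It was higher in visceral MNs than in both other classes. Its level there had a lowest value of 4.24, a median of 9.26 and a highest value of 15.0 CPM over the 9 libraries, against 0.528 to 1.70 CPM in skeletal MNs and 0.395 to 1.85 CPM in interneurons. No visceral sum fell as low as any sum of the other classes. The log2 difference was 1.18 from skeletal MNs (SE 0.10, limma adjusted p = 1.31e-09, 66.7% of genes passed). It was 1.22 from interneurons (SE 0.10, limma adjusted p = 1.47e-09, 51.4% of genes passed). Visceral MNs were higher than each of the other classes in 9 of 9 libraries. Adra2a passed the filter on low values only through visceral sums, so it could hardly have been tested without differing. Its limma calls between these classes are therefore no support, and the ranges of the sums are a description.

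Within visceral MNs, Adra2a was led by V10 (16.1 ± 11.5 CPM, n = 7), V1 (15.8 ± 6.98, n = 9), V4 (12.6 ± 7.66, n = 9) and V9 (11.4 ± 9.12, n = 6), with no difference between these neighbours beyond their spread. Its share was 2.90% ± 0.54 (SD, n = 3) in lumbar/sacral and 10.0% ± 2.5 (SD, n = 6) in other visceral MNs. The exact permutation p was 0.0119 (0.177 adjusted over all genes), and 21.9% of genes had an exact p under 0.05. With the pool as a block no p could be under 0.25. The lumbar/sacral libraries were shallower, and after thinning the shares were 2.37 and 5.42% (exact p = 0.0238). On the CPM scale the 3 lumbar/sacral libraries (5.16, 4.24 and 6.47 CPM) lay below the other 6 (8.72 to 15.0 CPM), but the fitted difference of -0.65 (SE 0.19) did not pass (limma adjusted p = 0.11). Without V8 and V9 the fitted difference was -0.60 (limma adjusted p = 0.343). Within V1 to V5 and V7 the regions overlapped, as in V1 (0 to 22.7 CPM in lumbar/sacral against 11.7 to 22.4 CPM in other libraries). On the CPM scale of all visceral MNs the libraries lay in the opposite order to those of Adra1a, but the difference of Adra2a did not pass.

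Adrb1, which encodes the beta1 receptor (plus strand, chr19:56722199-56733113), was found in 4.16% ± 3.6 of visceral MNs, 1.09% ± 0.98 of interneurons and 0.20% ± 0.39 of skeletal MNs (SD, n = 9 libraries). Visceral MNs were above each of the other classes in 9 of 9 libraries. V1 led, with 14.1 ± 6.50 CPM and 93 of 798 nuclei (11.7%), and was well above V4 in the mean (6.69 ± 3.66 CPM) although not beyond the spread of the difference. V1 was thus high in both Adra2a and Adrb1. Of all visceral MNs, 21 of 5613 had both of these (0.374%, against a product of 0.288%). Adra2c, which encodes the alpha2C receptor (plus strand, chr5:35278319-35281763), was found in 2.11% ± 1.7 of visceral MNs, 0.82% ± 0.65 of skeletal MNs and 1.95% ± 1.9 of interneurons, with a top cluster of V9 at 5.17 ± 6.57 CPM.

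Between classes, Adra1b was lower in visceral than in skeletal MNs (-0.58, SE 0.08, limma adjusted p = 1.16e-06) and than in interneurons (-0.39, SE 0.08, adjusted p = 0.000246). Its level in skeletal MNs had a lowest value of 40.6, a median of 65.1 and a highest value of 74.9 CPM, and in visceral MNs 31.0, 34.4 and 58.1 CPM. Adra1a was lower in visceral than in skeletal MNs by 1.21 (SE 0.50, adjusted p = 0.0389), but this call was lost when any 1 of the 6 cervical and thoracic libraries was left out (adjusted p = 0.0627 to 0.125) and without the library term (0.061). The 3 lumbar/sacral libraries had more Adra1a in visceral than in skeletal MNs, and the other 6 had less. Adra1b was slightly higher in skeletal MNs than in interneurons (0.19, SE 0.08, adjusted p = 0.0416, 59.5% of genes passed), a call that did not hold without the library term (adjusted p = 0.254) or when cervical replicate 3, thoracic replicate 2, lumbar/sacral replicate 1 or lumbar/sacral replicate 2 was left out (0.0833 to 0.111).

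Shares gave a second readout that also covers the 3 genes under the filter. Between visceral and skeletal MNs, Adra1b and Adra1d were found in fewer and Adra2a and Adrb1 in more nuclei (exact sign-flip test over 9 libraries, p = 0.00391 each, adjusted over all genes p = 0.0163, 34.9% of genes passed). Between visceral MNs and interneurons, Adra2a and Adrb1 were found in more (p = 0.00391, adjusted 0.0192) and Adra1b in fewer nuclei of visceral MNs (exact sign-flip p = 0.0117, adjusted 0.0415, 28.2% of genes passed). The last call was lost when any library other than lumbar/sacral replicate 1 was left out (adjusted p = 0.0549 to 0.0775). It was also lost after thinning (exact sign-flip p = 0.03125, adjusted 0.102), where Adra2a and Adrb1 still passed between these classes (adjusted 0.0245). Between skeletal MNs and interneurons, Adra1b and Adra1d were found in more and Adrb1 in fewer skeletal MNs (exact sign-flip p = 0.00391, adjusted 0.0177, 32.0% of genes passed). All 10 calls were lost when at least 2 corrected counts were asked of a nucleus, and without the cervical and thoracic libraries of the male pool only the 3 between skeletal MNs and interneurons passed (adjusted p = 0.0494). With fewer libraries the smallest p that sign flips allow is larger, so the latter loss cannot tell whether those libraries carried the differences. Adra1a and Adra2c passed in no pair of classes after adjustment. In interneurons, lumbar/sacral shares of Adra1a (12.2 against 22.0%, exact permutation p = 0.0238) and Adra1b (18.7 against 31.8%, exact p = 0.0357) were lower, as for 20.1% of genes, but after thinning they were 12.7 against 13.6% and 18.4 against 17.9%. In skeletal MNs no receptor had an exact p under 0.05, where 12.9% of genes did, and no regional share passed after adjustment over all genes (0% in each class).

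Few genes downstream of these receptors were called with region. Of 68 listed genes (other receptors, G proteins, phospholipases, inositol trisphosphate receptors and protein kinase C, adenylyl cyclases, protein kinase A, desensitisation, effector channels and handling of noradrenaline), 49 were tested in visceral MNs, 2 were higher and 2 lower in lumbar/sacral tissue (4.27% of all genes passed), and their median log2 difference was 0.02, beside 0.06 over all genes. Itpr1, an inositol trisphosphate receptor that releases calcium downstream of Gq, was higher by 1.52 (SE 0.155, limma adjusted p = 0.00093), and Kcnj3, a subunit of the potassium channels opened by Gi, by 0.92 (SE 0.21, adjusted p = 0.0448). Prkca, which encodes protein kinase C alpha, was lower by 1.12 (log2 difference -1.12, SE 0.15, adjusted p = 0.00305), and Plcb4, a phospholipase C, had a difference of -1.03 (SE 0.18, adjusted p = 0.0138). Without V8 and V9, Itpr1 (1.13, adjusted p = 0.0133) and Prkca (-0.82, adjusted p = 0.0221) passed, of 48 tested. In skeletal MNs, S2 and interneurons 0 of 50, 51 and 49 genes passed limma's test.

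Between skeletal clusters more of the list differed. S2 was higher in 13 and lower in 10 of 52 genes tested against S1, where 25.4% of all genes passed, and higher in 12 and lower in 10 of 52 against S3, where 31.1% passed. Against S3, Itpr1 (3.60), Gna14, a member of the Gq family (3.82), and Kcnj3 (1.52) had the lowest adjusted p among those higher, and Kcnk3, a leak potassium channel (-1.71), Plcb4 (-0.86) and Rgs7, a brake on Gi signalling (-0.59), among those lower (limma adjusted p at most 2.68e-08). Against S1, Grk5, a kinase that desensitises receptors (0.84), Itpr1 (1.37) and Adcy1 (0.99) were higher, and Rgs7 (-0.47) and Kcnk3 (-0.78) lower. Of the skeletal clusters, S2 thus had the most Adra1a and the most Itpr1, but less Plcb4 than S3. A link between the levels of these genes was not tested.

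Between classes most of the list differed, as did most genes: 28 were higher and 22 lower in visceral than in skeletal MNs, of 53 (66.7% of all genes passed). Gnas, the Gs subunit, was higher by 1.96, Adcy7, an adenylyl cyclase, by 2.67 and Slc22a3, an extraneuronal monoamine transporter, by 1.64, while Plcb1 (-1.28), Itpr3 (-3.51) and Rgs7 (-1.43) were lower. Between visceral MNs and interneurons 17 were higher and 20 lower of 53 (51.4% of all genes passed), led by Adcy2 (3.60) and Kcnj6 (-2.75). Between skeletal MNs and interneurons 17 were higher and 20 lower of 53 (59.5% of all genes passed), led by Itpr3 (3.46) and Gnas (-1.94). Adrb3, which encodes a beta receptor, had its highest mean levels in I6 (15.1 ± 10.6 CPM) and I5 (13.6 ± 9.73 CPM).

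The genes whose mean log2 level over the 21 clusters was most like that of a receptor, of 12131 genes, were picked by Pearson r as a description. For Adra1a they were Arhgef26 (0.88), Gm35019 (0.88) and Zfhx3, a transcription factor (0.83), and for Adra1b Mthfs (0.74), Cxcl17 (0.74) and Gls2 (0.73). For Adra2a they were Zeb2, the transcription factor that marks visceral MNs (0.92), Shoc2 (0.88) and Mme, which encodes neprilysin (0.88), and for Adrb1 Agtr1b, an angiotensin receptor (0.83), Tcfl5 (0.80) and Igfbp5 (0.78). The clusters share libraries and depth. Adra2a and Adrb1 were alike in part (0.67), and Adra1a and Adra1b hardly (0.21).

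The male and the female pool are 1 pool each, so their values stand side by side with no test. Adra1a in lumbar/sacral visceral MNs was 118 CPM in the male, 130 CPM in the female and 165 CPM in the mixed pool. Adra2a there was 4.24, 6.47 and 5.16 CPM in the same order. In visceral MNs of the libraries labelled thoracic, Adra2a was 15.0 CPM in the male, 8.72 CPM in the female and 9.35 CPM in the mixed pool, a gap as wide as that between regions. Hox genes went against the labels of the male cervical and thoracic libraries. With these labels exchanged, the male thoracic value would be 9.26 CPM, and the gap would not be seen.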

How the data were processed

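Single nuclei were measured with 10x Genomics libraries. Per the labels and the study's methods, the authors used Cell Ranger 3.1.0 and mm10 (GRCm38) with introns counted, dropped outlying nuclei, applied SCTransform in Seurat to each barcoded region and named the classes and clusters. The values the authors deposited are corrected counts, a score made by a regression model and not raw counts of molecules, so no count model was run. The receptor genes and all gene lists were chosen with earlier results of these data known.

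Corrected counts were summed per library and group of nuclei (at least 10 nuclei) and scaled to CPM by all corrected counts of the same nuclei. Sums were compared with limma 3.58.1 (R 4.3.3, trend) on log2(CPM + 5), for genes that reached 10 CPM in 3 or more sums, with Benjamini-Hochberg adjustment over all genes tested and a call at an adjusted p under 0.05. Where libraries were left out, the genes tested with all libraries were kept. Class and cluster fits, and the fit of the difference between regional effects, had a library term. Region fits compared 3 lumbar/sacral libraries with the mean of cervical and thoracic libraries, with no block. Replicate numbers mark pools of the same mice, so a fit with the pool as a block was the alternative. Deviations of libraries of the same pool had correlations from -0.22 to 0.92, above 0.1 in 35 of 45 pairs. The pairs at or under 0.1 were all those of cervical replicate 3 with the other libraries of its pool (-0.22 to 0.063), and the cause was not tested. Adra1a, Adra1b and Adra2a passed the filter in class fits, in visceral region fits and in the fit of the difference between visceral and skeletal MNs, Adra1a and Adra1b in the others, and Adra1d, Adra2c and Adrb1 in none. Shares were compared by exact tests (512 sign flips, or 84 groupings), adjusted over 21418 genes with a value and not, as had been planned, over the 18 tests of the receptor genes, since a p adjusted over a chosen list alone is not given. P-values measure the spread between 9 libraries from 3 pools, which hold 4 mice each and are not separate animals. The 84 groupings treat libraries of the same pool as separate, and with the pool as a block the smallest exact p is 0.25.

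Alternative settings included median-of-ratios scaling, pseudocounts of 1 and 20, no filter, at least 25 nuclei, no doublets (scanpy 1.11.5), the block, at least 2 corrected counts, thinning to 4600 corrected counts (which left out 8.63% of nuclei) and leaving out each library. Genes named from the downstream list are among the 3 with the lowest adjusted p in each direction, and 1 such gene is not reported here. Positions are from GENCODE gene models of GRCm38. Intervals and limits (3 counts) cover counting error only, and shares at the depth of a library of 4712 corrected counts are less precise than at 16127. The limma and exact tests were checked on simulated data. Python 3.11.15, numpy 2.4.6, pandas 2.3.3 and scipy 1.17.1 were used.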

Additional observations from a re-analysis of the deposited data

Results flagged for a closer look

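The regional difference of Adra1a, lumbar/sacral against cervical and thoracic libraries, differed between classes of MN: it was larger in visceral than in skeletal MNs by 3.48 on the log2(CPM + 5) scale (SE 0.44, limma adjusted p = 0.00029 for the interaction). The value was 3.28 to 3.81 when single libraries were left out. The share of S2 among skeletal MNs varied between libraries, and its part in this value was not tested.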

How the results depend on the processing

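The regional result of Adra1a in visceral MNs kept its direction under all alternatives run. The gene passes the filter only through lumbar/sacral libraries, so its call is no sign of stability where the filter is used, and with no filter it passed as well (adjusted p = 1.01e-05). The fit with the pool as a replicate block gave 3.74 (limma adjusted p = 2.32e-05) and, without V8 and V9, 2.84 (adjusted p = 0.00044). The block changed no regional call. The size depended on the pseudocount, and without V8 and V9 it was 3.47 with a pseudocount of 1 and 1.82 with 20. Among 915 values from alternatives, counts of receptor genes called changed as follows. Visceral against skeletal MNs gave 5 in place of 3 with no filter. Skeletal MNs against interneurons gave 0 in place of 1 with the median of ratios, with no replicate block and without the cervical and thoracic libraries of the male pool (chosen after seeing the data), 2 with no filter, and 0 to 1 with single libraries left out. S2 against S1 gave 1 in place of 2 with no replicate block and 1 to 2 with single libraries left out. The regional difference between visceral and skeletal MNs gave 1 to 2 with single libraries left out. Shares between classes gave 0 in place of 10 at 2 corrected counts, and 3 without the male pool's cervical and thoracic libraries, where the smallest possible sign-flip p is larger. With thinning, the share call of Adra1b between visceral MNs and interneurons was lost. The regional difference in skeletal MNs turned to -0.11 for Adra1a and to -0.0046 for Adra1b without those libraries and to -0.12 for Adra1b with the median of ratios, and with single libraries left out it ran from -0.035 to 0.55 and from -0.14 to 0.25. In S2 that of Adra1a turned to -0.11 without those libraries and ran from -0.020 to 0.46. That of Adra1b ran from -0.17 to 0.23 in visceral MNs and its interaction from -0.028 to 0.26. The share difference of Adrb1 between skeletal MNs and interneurons turned to 0.0636 percentage points at 2 corrected counts, and that of Adra1b between regions of interneurons to 0.494 with thinning. None of the values that turned had passed its test, apart from the share of Adrb1, and the cause was not tested. The lumbar/sacral libraries are among those with the fewest corrected counts per nucleus, which limits shares of the sparse receptors most.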
